A study of Homo sapiens with 4 samples.

Results

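The 10 genes described here encode intermediate filament proteins: the keratins KRT7, KRT8, KRT18, KRT19, KRT20 and KRT80, vimentin (VIM), nestin (NES), synemin (SYNM) and glial fibrillary acidic protein (GFAP). The rule that picks them uses gene names and no measured value, although the genes were proposed with earlier results of these data known. All 10 had a read in at least 1 library, among 31907 gene names that did, and 8 of the 10 passed the filter on low counts that 16361 names passed. Expression was measured by RNA-seq in HGC-27, a human gastric cancer (GC) cell line. 2 libraries came from cells given PBS, the control, and 2 from cells given 200 ng/ml recombinant IL-17B (rIL-17B), a cytokine of the IL-17 family, and all 4 were taken at 48 h. The labels give the same line for all 4 and name no genetic change, so PBS against rIL-17B was the only contrast. Nothing in the labels says that replicates were separate cultures, so the p-values measure the spread between these libraries, which may be technical. The study used cytokeratin 18, the product of KRT18, and the mucin MUC1 as markers of epithelial differentiation. After rIL-17B it reported less mRNA of both by qRT-PCR in another GC cell line, and less cytokeratin 18 protein in xenografts of that line. KRT18 and MUC1 went the other way here, in HGC-27, and neither difference passed the test over all 4 libraries. In these data KRT8, KRT18, KRT7 and KRT80 had more transcript, and VIM and NES less, in each rIL-17B library than in either PBS library. Of all 16361 genes tested, 31.5% were likewise higher and 27.5% lower in both treated libraries. No member passed the test over all 4 libraries.

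Intermediate filaments are rope-like polymers that give a cell mechanical strength. Keratins are obligate heteropolymers, in which a type I chain (KRT18, KRT19, KRT20) pairs with a type II chain (KRT7, KRT8, KRT80), and they mark epithelia. Vimentin and GFAP are type III proteins that polymerise on their own, the former in mesenchymal cells and the latter in astrocytes, whereas nestin and synemin are large type IV proteins that join the filaments of other proteins, with nestin best known from neural progenitors. KRT8 and KRT18 are the primary pair of simple epithelia, to which the gastric and intestinal lining adds KRT19 and KRT20, and loss of keratins with gain of vimentin is a widely used sign of epithelial-mesenchymal transition.

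Before the results, the libraries themselves must be described, because rIL-17B replicate 1 stood apart. Totals were between 12888029 and 17555879 counts per library, so that the smallest level that could be shown, 3 counts, was between 0.171 and 0.233 CPM (counts for every 1000000 of the library total). There were 342 genes with 3 counts or fewer in rIL-17B replicate 1 alone and 100 or more in each other library, and the same search found 0 such genes for each of the others. Between themselves the PBS libraries differed by 3.66 times the sampling noise (chi-square over its degrees of freedom), those of rIL-17B replicate 2 from PBS by 6.54 and 8.71 times, and those of rIL-17B replicate 1 from every other library by between 139 and 180 times. Scaling to the library total put the median of all tested genes in rIL-17B replicate 1 at 0.08 above PBS on the log2 scale, and TMM, edgeR's scaling factor, put it at -0.04. Levels below are therefore given per library, and the tests also without rIL-17B replicate 1. Whether the treatment or something particular to that library sets its values cannot be told apart with these samples. The protocol field names monocytes although the cell line field gives HGC-27.

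With PBS, VIM was the most abundant of the 10 transcripts for its length, ahead of KRT8, and both lay well above the rest. Per kilobase of exon, the mean VIM level was 139 ± 2.89 CPM (SD, n = 2) and the mean KRT8 level 88.1 ± 1.02. KRT18, NES and KRT7 followed at 51.9 ± 0.876, 50.9 ± 15.9 and 49.9 ± 2.40 CPM per kilobase. By exon length these 3 did not separate, since NES alone was 39.6 in PBS replicate 1, below both keratins, and 62.1 in PBS replicate 2, above both. KRT80 came next at 11.9 ± 0.595 CPM per kilobase and SYNM at 9.80 ± 0.672. KRT19 stood at 1.35 ± 0.115, and GFAP and KRT20 were at 0.0542 and 0.0420 CPM per kilobase, near the floor. The baseline was a mixed one, in which a mesenchymal, a neural progenitor and the simple epithelial filament transcripts were abundant, while the gastrointestinal KRT20 was near the floor. When coding length replaced exon length, an alternative added after the data were seen, VIM and KRT8 stayed first and second and KRT7, KRT18 and NES followed in that order. By coding length NES did separate, at 45.3 and 71.0 CPM per kilobase in PBS replicates 1 and 2. KRT7 was then at 150 and 140 and KRT18 at 131 and 128, so the place of NES depended on the length used.

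KRT8, the type II keratin of simple epithelia (chr12:52897187-52949954, minus strand), had 601 and 611 CPM with PBS against 1457 and 787 CPM with rIL-17B. Both treated libraries lay above both controls, which differed little between themselves, but replicate 1 was 2.40-fold and replicate 2 1.30-fold the PBS mean. The fitted log2 fold change was 0.80 (SE 0.31), with an edgeR quasi-likelihood p of 0.0658, adjusted over all genes to 0.661. The difference did not pass the test, and the SD was 474 CPM between the treated libraries and 7.04 CPM between the controls. Fitted without rIL-17B replicate 1, the KRT8 difference was 0.37 (SE 0.08) with an edgeR adjusted p of 0.00034. That fit takes its spread from the PBS pair and shares it across genes, so a standard error need not follow a gene's own PBS spread. It assumes that the lone treated library varies in the same way, as do all such fits below.

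KRT18, its type I partner (chr12:52948871-52952901, plus strand), had 169 and 165 CPM with PBS against 355 and 207 CPM with rIL-17B. As for KRT8, replicate 1 was highest, then replicate 2, then the controls, with replicate 1 at 2.13-fold and replicate 2 at 1.24-fold the PBS mean. The log2 fold change was 0.66 (SE 0.26, edgeR adjusted p = 0.661), and without rIL-17B replicate 1 it was 0.30 (SE 0.09, edgeR adjusted p = 0.0214).

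KRT7, a type II keratin of glandular and ductal epithelia (chr12:52232520-52252186, plus strand), was at 211 and 197 CPM in the PBS libraries and at 394 and 238 in the treated ones. Again no treated library overlapped the controls, with replicate 1 at 1.93-fold and replicate 2 at 1.17-fold the PBS mean. Its log2 fold change was 0.55 (SE 0.24, edgeR adjusted p = 0.661). Of the 4 keratins that were higher, KRT7 was the one whose difference did not pass without rIL-17B replicate 1, at 0.22 (SE 0.09, edgeR adjusted p = 0.165).

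KRT80, a type II keratin that lies near the desmosomes of several epithelia (chr12:52168996-52192000, minus strand), measured 50.1 and 53.8 CPM in the controls against 112 and 68.4 after rIL-17B. Over all 4 libraries its log2 fold change was 0.71 (SE 0.24), with an unadjusted edgeR p of 0.044 and an adjusted p of 0.661. Under a replicate block its unadjusted edgeR p was 0.073. Its replicate folds were 2.16 and 1.32, and its difference without rIL-17B replicate 1 was 0.40 (SE 0.10, edgeR adjusted p = 0.00883).

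**Figure D1:**
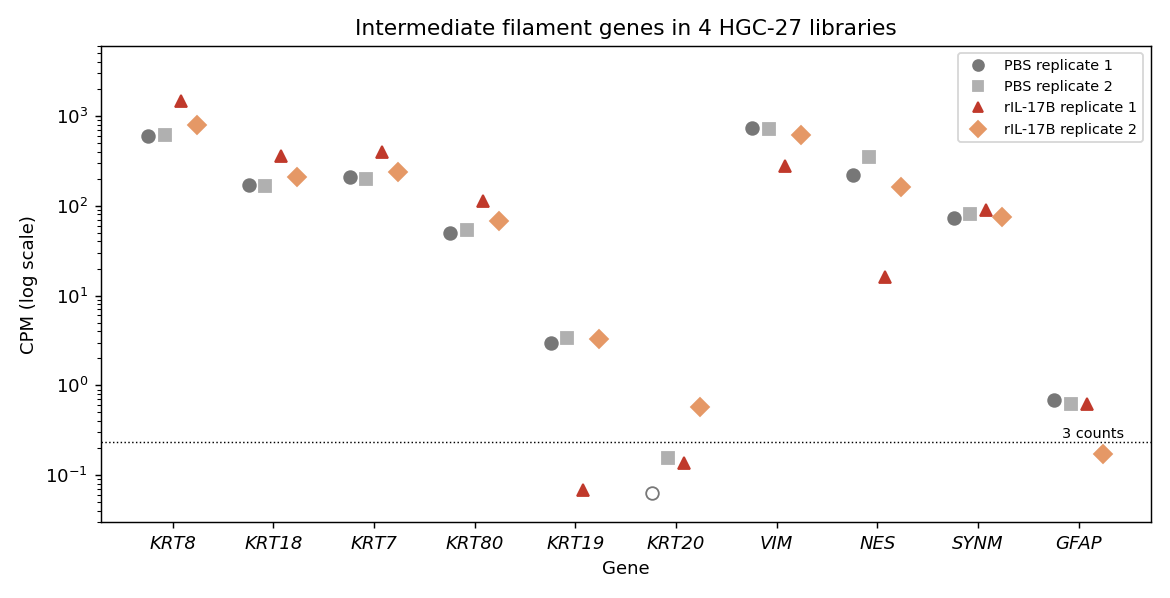
Level of each of the 10 intermediate filament genes in each library, in CPM on a log axis; the dotted line marks the highest level that 3 counts can give in any library, and the open circle is a count of 0. For KRT8, KRT18, KRT7 and KRT80 both rIL-17B points sit above both PBS points, for VIM and NES they sit below, and rIL-17B replicate 1 lies furthest from PBS in each of these 6.

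KRT19, the smallest keratin (chr17:41523617-41528308, minus strand), did not follow them. It had 47 and 43 counts with PBS, 1 count in rIL-17B replicate 1 and 58 counts in its replicate 2, or 2.96, 3.34, 0.0684 and 3.30 CPM in that order. Only rIL-17B replicate 1 was low, and replicate 2 fell between the PBS libraries. PBS over rIL-17B replicate 1 was 45.7-fold (exact 95% interval 7.99 to 1824, counting error only, from 90 counts against 1). The log2 fold change over all 4 libraries was -0.90 (SE 1.56, edgeR adjusted p = 0.77), and without rIL-17B replicate 1 it was 0.07 (SE 0.34, edgeR adjusted p = 0.965). In rIL-17B replicate 1 this keratin of the gastric lining had 1 count while KRT8, KRT18 and KRT7 were at their highest.

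KRT20, a keratin of the differentiated intestinal and gastric surface epithelium (chr17:40875941-40885227, minus strand), had 0 and 2 counts in the PBS libraries and 2 and 10 in the treated ones. The count of 0 allows a level of up to 0.189 CPM, and only rIL-17B replicate 2 passed 3 counts, at 0.570 CPM. KRT20 did not pass the filter and was not tested, and no fold is given from so few counts.

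VIM (chr10:17228259-17237593, plus strand), the mesenchymal filament, was lower in both treated libraries. It had 727 and 706 CPM with PBS against 280 and 615 with rIL-17B, so the controls agreed closely and both treated libraries lay under them. The PBS mean was 2.56-fold rIL-17B replicate 1 and 1.17-fold replicate 2. The log2 fold change was -0.72 (SE 0.48, edgeR adjusted p = 0.661), and -0.22 (SE 0.08, edgeR adjusted p = 0.110) without rIL-17B replicate 1, so the VIM difference passed in neither fit.

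NES (chr1:156668763-156677397, minus strand) had the widest range of the 8 tested genes after KRT19. It was at 220 and 345 CPM in the PBS libraries and at 16.1 and 162 in the treated ones. The controls differed 1.57-fold between themselves, yet both treated libraries were below the lower control, and the PBS mean was 17.6-fold rIL-17B replicate 1 and 1.74-fold replicate 2. Over all 4 libraries the log2 fold change was -1.68 (SE 1.22, edgeR adjusted p = 0.661). Without rIL-17B replicate 1 the NES difference was -0.80 (SE 0.09). In that fit the PBS pair, whose NES levels differed 1.57-fold, are the only replicates. The lone treated library lies 1.74-fold from their mean. The NES standard error was near the 0.08 of KRT8, whose PBS libraries differed 1.02-fold, so it does not reflect the spread of NES itself. In these cultures fewer cells that express a gene and less RNA of it per cell cannot be told apart, here or for any other gene.

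The promoter windows of VIM and NES are shown because these were the tested members lower in both treated libraries. Each holds the 250 bases before the transcription start of RefSeq on GRCh38.p14, 5′ to 3′ along the gene, with matches to the GC box GGGCGG (or its complement) in capitals:
VIM: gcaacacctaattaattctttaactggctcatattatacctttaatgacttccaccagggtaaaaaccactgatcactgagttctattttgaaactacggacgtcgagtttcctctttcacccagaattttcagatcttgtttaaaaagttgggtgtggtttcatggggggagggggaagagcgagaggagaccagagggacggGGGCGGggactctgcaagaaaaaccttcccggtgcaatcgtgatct
NES: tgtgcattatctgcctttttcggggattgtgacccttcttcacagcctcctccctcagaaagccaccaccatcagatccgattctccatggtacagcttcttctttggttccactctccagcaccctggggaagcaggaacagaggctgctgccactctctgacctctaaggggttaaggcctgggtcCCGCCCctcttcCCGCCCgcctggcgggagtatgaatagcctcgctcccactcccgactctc
The windows lie at chr10:17227991-17228240 on the plus strand and chr1:156677408-156677657 on the minus strand. The VIM window held 1 GC box, from 46 to 41 bases before the start, and its bases were 46.0% G or C. The NES window held 2, both on the opposite strand, from 62 to 57 and from 50 to 45 bases before the start, at 58.0% G or C. A GC box on either strand occurs in 42.6% of the 35114 RefSeq promoter windows of this length. The other motifs searched, on both strands, were not in either window: the TATA box TATAAA (10.7% of all windows), the CCAAT box CCAAT (32.0%) and the AP-1 type sequence TGANTCA (6.57%), none of which overlaps the GC box. Of the other members, KRT20, SYNM and KRT8 had an entry. The KRT20 window held 1 CCAAT box. The SYNM window held 1 CCAAT box and 4 GC boxes, of which 2 overlap each other, and lies 6863 bases from the start of the gene in GENCODE 29. The KRT8 window, which lies 23485 bases from the start of the gene in GENCODE 29, held no match. KRT7, KRT18, KRT19, KRT80 and GFAP were not analysed here for motifs.

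SYNM (chr15:99098217-99135593, plus strand), which links filaments to adhesion sites, was the steadiest member. It measured 72.9 and 80.3 CPM in the controls against 88.5 and 74.6 after rIL-17B, and the groups overlapped. The log2 fold change was 0.02 (SE 0.11, edgeR adjusted p = 0.937) over all 4 libraries and -0.04 (SE 0.10, edgeR adjusted p = 0.926) without rIL-17B replicate 1. The sign of the SYNM difference also turned without PBS replicate 1 and with a filter of at least 10 counts in every library, and each of these values is smaller than its standard error.

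GFAP (chr17:44903161-44916937, minus strand) had 11 and 8 counts in the PBS libraries and 9 and 3 in the treated ones, at most 0.692 CPM. The astrocyte filament was at the edge of detection throughout, while NES was abundant with PBS. It did not pass the filter over all 4 libraries. Both treated values were under both controls, at counts too low to read, and without rIL-17B replicate 1 the GFAP difference was -1.90 (SE 1.15, edgeR adjusted p = 0.485).

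Read together against all genes, 0 of the 8 tested members passed an adjusted p of 0.05 in edgeR, and 0.0% of the 16361 genes did. DESeq2, the other tool run, also called 0 members and 0 genes. At an unadjusted p under 0.05 there was 1 member in edgeR, KRT80, and 1.38% of all genes. That count was 4 (KRT7, KRT8, KRT18 and KRT80) in DESeq2, where 2.79% of all genes were under 0.05, and the same 4 in edgeR with no filter on low counts, where 2.75% were. It was 0 with the replicate block, where 1.06% were. 4 members (KRT7, KRT8, KRT18, KRT80) were higher in both treated than in both PBS libraries, a pattern shown by 31.5% of all genes, and 2 (VIM, NES) were lower in both, shown by 27.5%. With 2 libraries a group the absence of overlap is common among all genes and marks no member out.

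The same count in each treated library alone showed where the distance lay. In rIL-17B replicate 1, with 0.5 CPM added to each value, 3 members (KRT8, KRT18, KRT80) were at least 2-fold above the PBS mean, against 2.61% of all genes, and 3 (VIM, NES, KRT19) at least 2-fold below, against 18.6%. Scaled by TMM, the count above was 1, KRT8. In rIL-17B replicate 2 the counts of members were 0 above and 0 below, against 0.0611% and 0.575% of all genes. The libraries share their PBS controls, so the values of replicate 1 and replicate 2 are not independent.

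Fits with a single treated library gave the order of sizes. Without rIL-17B replicate 1, 3 members were called higher (KRT8, KRT18, KRT80), where 0.643% of 17103 genes were, and 1 lower (NES), where 2.30% were. Without rIL-17B replicate 2, 4 members were called higher (KRT7, KRT8, KRT18, KRT80), where 23.2% of 17223 genes were, and 3 lower (VIM, NES, KRT19), where 31.9% were. In the latter fit the log2 differences were 1.13 (SE 0.07) for KRT8, 0.98 (SE 0.10) for KRT80, 0.95 (SE 0.08) for KRT18 and 0.81 (SE 0.08) for KRT7. Those of VIM, NES and KRT19 were -1.49 (SE 0.08), -4.27 (SE 0.12) and -5.48 (SE 0.81), the last resting on 1 count. With PBS replicate 1 or PBS replicate 2 left out instead, 0 members were called.

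**Figure D2:**
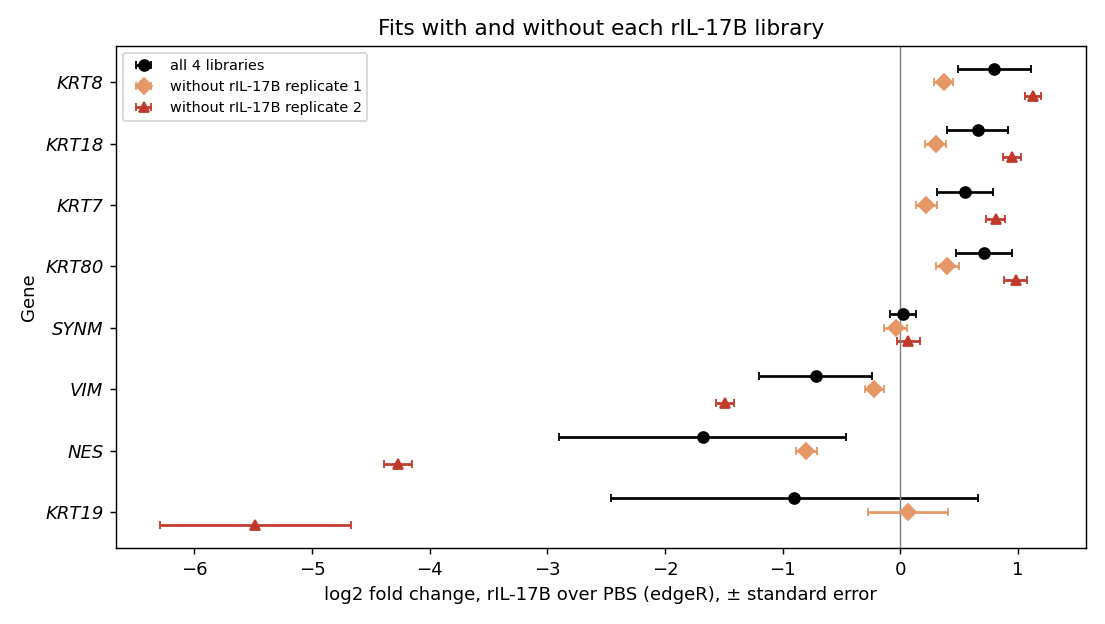
Fitted log2 fold change of rIL-17B over PBS for the 8 tested genes, with all 4 libraries and without either rIL-17B library; points are edgeR estimates and bars their standard errors. The 4 keratins at the top keep their side in all 3 fits, from 0.22 for KRT7 to 1.13 for KRT8, whereas KRT19 moves from -5.48 to 0.07 and SYNM stays near 0.

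The make-up of the filament transcripts differed more between libraries than their sum. The 10 genes together took 0.206% and 0.216% of the counts with PBS and 0.270% and 0.216% with rIL-17B. Of these counts, the 6 keratins held 50.3% (Wilson 95% interval 49.8 to 50.9) and 47.7% (47.1 to 48.3) with PBS. In the treated libraries they held 85.8% (85.4 to 86.1) in replicate 1 and 60.5% (60.0 to 61.0) in replicate 2, intervals that cover counting error only, since PCR copies are not independent molecules. Both treated libraries had a larger keratin share than either control, and replicate 1 by far the larger.

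VIM and NES held less of the counts in both treated libraries than in either control, and SYNM about the same. VIM held 35.4% and 32.6% of the counts of the 10 genes with PBS and 10.3% and 28.5% with rIL-17B. NES held 10.7% and 16.0% with PBS and 0.595% and 7.53% with rIL-17B, while SYNM stayed between 3.27% and 3.71% in all 4 libraries. With KRT17, KRT81 and KRT86 added to the keratins, an alternative chosen after the data were seen, VIM held 31.6%, 29.3%, 8.52% and 24.8%, in the order PBS replicate 1 and 2 and rIL-17B replicate 1 and 2. Shares must sum to a whole, so they do not say which gene moved.

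**Figure D3:**
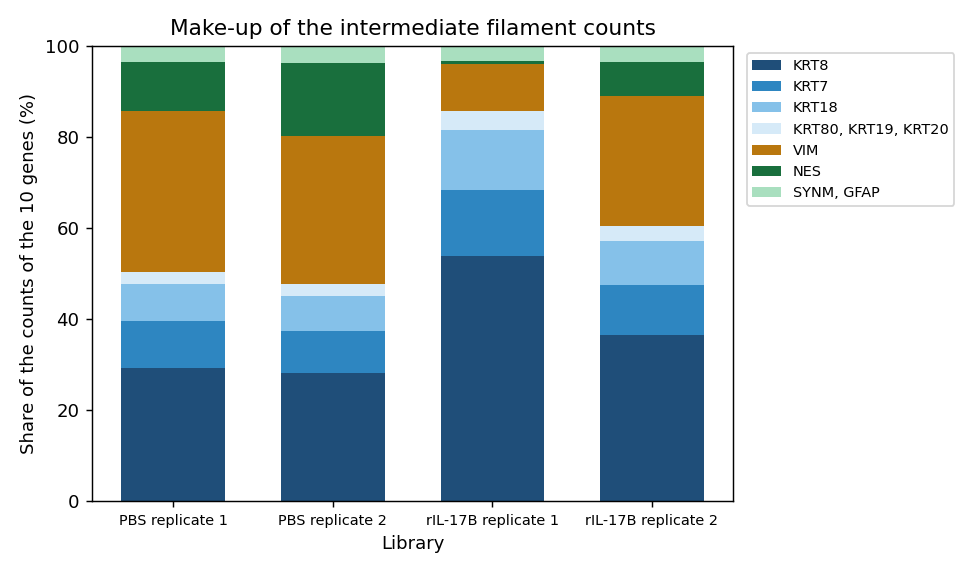
Share of each gene in the summed counts of the 10 intermediate filament genes, in percent, with 1 bar per library; bar segments are genes or groups of genes as named in the legend. The blue keratin segments reach 50.3% and 47.7% with PBS, 85.8% and 60.5% in the treated replicates 1 and 2.

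Ratios between members within a library do not depend on its scaling. KRT8 over VIM counts was 0.828 and 0.866 with PBS and 5.21 and 1.28 with rIL-17B, so VIM reads outnumbered KRT8 reads in the controls and the reverse held in both treated libraries. For the partners KRT8 and KRT18 the count ratio was 3.56 and 3.71 with PBS and 4.10 and 3.81 with rIL-17B, or per kilobase of exon 1.66, 1.73, 1.92 and 1.78. The ratio of the pair was higher in both treated libraries than in either control. Its range was narrow beside that of the level of each gene, which differed between libraries by 2.42-fold and 2.15-fold. A narrow range was not particular to partners, as the count of KRT81, another type II keratin, was between 0.221 and 0.234 times that of KRT8. KRT7 over KRT8 was 0.351 and 0.323 with PBS and 0.271 and 0.303 with rIL-17B, lowest in replicate 1. Summed per kilobase with the other keratins that had counts of note, type II (KRT7, KRT8, KRT80, KRT81, KRT86) over type I (KRT18, KRT19, KRT20, KRT17, KRT10) was 2.31 and 2.38 with PBS and 2.56 and 2.43 with rIL-17B, an excess of type II transcript in every library. NES per 1000 VIM counts was 303 and 489 with PBS against 57.5 and 264 with rIL-17B, so the 2 lower genes did not keep a common proportion.

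Beyond the members, 69 intermediate filament genes were listed in all, of which 49 had a count and 21 passed the filter. Among the 25 other type I keratins, 16 had a count and 3 were tested (KRT17, KRT10, KRT15), and among the 23 other type II keratins 12 had a count and 2 were tested (KRT81, KRT86). None of these 5 passed an adjusted p of 0.05 in edgeR, and KRT81 alone had an unadjusted edgeR p under 0.05, at 0.0469. The epidermal pair KRT5 and KRT14 had no count in any library. In the 5 lists that follow, from the other type III and IV genes to the filament-binding genes, 0 genes passed in edgeR over all 4 libraries, 0 had an unadjusted p under 0.05, and DESeq2 called 0. Counts of genes higher or lower in both treated libraries stand against the 31.5% and 27.5% of all genes given above.

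KRT17, a type I keratin of basal and injured epithelium, had 109 and 107 CPM with PBS against 249 and 137 with rIL-17B. KRT81, a type II hair keratin, was at 137 and 139 CPM in the PBS libraries and at 321 and 184 in the treated ones, and KRT86, another hair keratin, had 2.58, 3.18, 10.2 and 3.93 CPM in the same order. In all 3, as in KRT8, replicate 1 was highest and replicate 2 next, above both controls. In both groups the KRT81 count was between 0.221 and 0.234 times that of KRT8 and the KRT17 count between 0.643 and 0.702 times that of KRT18. KRT10, the suprabasal keratin, had 16.7 and 14.1 CPM against 15.7 and 17.4, and its groups overlapped, as did those of KRT15, at 1.07 and 0.698 CPM against 1.37 and 0.854. Without rIL-17B replicate 1 the KRT17 difference was 0.34 (SE 0.09, edgeR adjusted p = 0.00886) and the KRT81 difference 0.41 (SE 0.09, edgeR adjusted p = 0.000261), while that of KRT86 was 0.45 (SE 0.33, edgeR adjusted p = 0.607).

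Of the 8 other type III and IV genes, 5 were tested and none passed. NEFH, the heavy neurofilament subunit, measured 20.2 and 19.8 CPM in the controls against 41.9 and 24.2 after rIL-17B, higher in both treated libraries like the keratins and unlike NES. Peripherin (PRPH) had 1.82 and 2.25 CPM against 0.821 and 1.42, and alpha-internexin (INA) 1.13 and 0.698 CPM against 0.0684 and 0.570, both lower in the treated libraries like VIM and NES. BFSP1, a lens filament protein, had 3.77 and 5.04 CPM against 5.20 and 3.53. The neural filament genes did not share 1 direction. The 3 lamins, which form the nuclear lamina, were each higher in both treated libraries: LMNA had 458 and 483 CPM against 632 and 493, LMNB1 124 and 126 against 238 and 144, and LMNB2 255 and 252 against 459 and 300. None of the lamins passed (edgeR adjusted p = 0.661 for each), and without rIL-17B replicate 1 no lamin and no gene of the type III and IV list was called.

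The proteins that anchor filaments were counted next. Of the 9 plakins and other linkers, all tested, 6 were higher and 3 lower in both treated libraries, and 0 passed. Desmoplakin (DSP), which ties keratins to desmosomes, had 303 and 303 CPM with PBS against 627 and 365 with rIL-17B. Envoplakin (EVPL) had 19.2 and 21.5 CPM against 40.1 and 23.4, and epiplakin (EPPK1), which binds keratin networks, 19.2 and 19.6 CPM against 46.8 and 20.4. The 3 lower genes included the broad cytolinkers plectin (PLEC), at 940 and 1000 CPM against 776 and 923, and MACF1, at 439 and 495 against 361 and 422. Without rIL-17B replicate 1, DSP was the 1 linker called, at 0.27 (SE 0.08, edgeR adjusted p = 0.0445).

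Of the 10 desmosome genes, 6 were tested, 4 were higher in both treated libraries and 0 passed. PERP had 241 and 227 CPM against 413 and 284, PKP3 35.5 and 32.7 against 62.5 and 40.8, PKP4 67.5 and 70.5 against 108 and 76.4, and the cadherin DSG2 60.2 and 59.7 against 122 and 70.3. Plakoglobin (JUP), at 201 and 224 CPM against 367 and 211, overlapped between groups, as its replicate 2 lay within the controls. Without rIL-17B replicate 1, PERP was the 1 desmosome gene called, at 0.27 (SE 0.08, edgeR adjusted p = 0.0445).

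Among 14 filament-binding and filament-modifying genes, 8 were higher and 2 lower in both treated libraries and 0 passed, and the chaperone CRYAB, at 17.1 and 17.1 CPM against 7.59 and 15.2, was the one at least 2-fold below PBS in replicate 1. The mitotic kinases that phosphorylate vimentin stood among the higher ones, AURKB at 50.2 and 44.3 CPM against 101 and 55.0 and PLK1 at 70.5 and 72.2 against 151 and 90.3. The other kinases of the list overlapped between groups, ROCK1 at 101 and 106 CPM against 81.9 and 106 and PAK1 at 26.5 and 23.0 against 27.4 and 25.3. The most abundant of this list differed less: the chaperone HSPB1 had 344 and 356 CPM against 362 and 354 and overlapped between groups, and the 14-3-3 proteins YWHAE and YWHAZ had 565 and 565 against 778 and 609 and 629 and 615 against 750 and 660. Without rIL-17B replicate 1, PLK1 was the 1 gene of this list called, at 0.34 (SE 0.10, edgeR adjusted p = 0.0228).

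For each list the tested genes were also reduced to a median log2 ratio against PBS, first in rIL-17B replicate 1 and then in replicate 2. It was 0.58 and 0.14 for the members, 0.43 and 0.17 for the 3 other type I keratins and 1.44 and 0.40 for the 2 other type II keratins. It was 0.86 and 0.20 for the lamins, 0.66 and 0.11 for the linkers, 0.80 and 0.19 for the desmosome genes and 0.23 and 0.05 for the filament-binding genes. Over all tested genes it was 0.08 and 0.00. The other type III and IV genes, at -0.24 and -0.40, were the list with both medians below that of all genes. All these ratios carry 0.5 CPM added to each value, which understates the change of low genes.

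Position on the chromosome was looked at after the values were known, because the 4 higher members all lie on chromosome 12. Between chr12:52168996 and chr12:52952901, from KRT80 to KRT18, 6 keratins were tested (KRT80, KRT7, KRT86, KRT81, KRT8, KRT18). Their median log2 ratio to PBS came to 1.16 for rIL-17B replicate 1 and 0.38 for replicate 2. The interval was drawn around the 4 higher members, so a high median within it was set by that choice. The 3 other tested names in the interval, KRT7-AS, KRT87P and AC121757.1, each overlap KRT7 or KRT86 and had medians of 0.60 and 0.33. Medians were 0.21 and 0.01 for the 36 tested genes within 1 Mb on either side, and 0.11 and 0.01 for the other 823 of chromosome 12. KRT17, on chromosome 17, had log2 ratios of 1.21 and 0.34, so higher values in both treated libraries were not confined to the interval. KRT19 and KRT20, also on chromosome 17, overlapped between groups.

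Some of these genes share bases with others, and whether reads were assigned by strand is not given in the sources used here. KRT8 and KRT18 overlap on opposite strands, KRT7 overlaps KRT86 on the same strand and KRT7-AS and KRT87P on the other, and VIM overlaps VIM-AS1. KRT7-AS was at 4.28 and 4.89 CPM in the PBS libraries and at 11.0 and 7.06 in the treated ones, a small number beside KRT7, and VIM-AS1 had 4.09 and 3.57 CPM against 0.958 and 4.16. Processed pseudogenes can take or give reads as well. The 22 KRT8 pseudogenes with a count summed to between 1.10% and 1.99% of the KRT8 counts in a library, the highest being KRT8P12, and the 31 of KRT18 to between 0.463% and 1.38% of the KRT18 counts. For KRT19 no pseudogene had a count. These sums bound what the annotated copies held, not how shared reads were assigned.

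Markers of other cell states were set beside the members, as whole lists. The 16 epithelial markers summed to 48.5 and 54.3 CPM in the controls and 75.8 and 55.6 after rIL-17B. E-cadherin (CDH1), the defining epithelial cadherin, stayed between 0.440 and 0.753 CPM in all 4 libraries. Abundant KRT8 and KRT18 transcripts stood beside almost no CDH1. The 15 gastrointestinal endoderm markers summed to 65.8 and 82.4 CPM in the controls and 15.1 and 52.3 after rIL-17B. Most of each sum was SOX9, at 44.7 and 62.5 CPM against 8.42 and 35.0. GATA6, at 15.2 and 11.4 CPM against 1.57 and 12.1, and CDX2, at 1.95 and 2.02 against 3.69 and 1.88, overlapped between groups. FOXA2, TFF1 and TFF3 were at 0 in all 4 libraries. The 10 monocyte markers summed to between 8.62 and 14.8 CPM.

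VIM was compared with the 15 mesenchymal markers, which were detected in every library. They summed to 54868 and 53928 CPM with PBS, 1021 CPM in rIL-17B replicate 1 and 45895 CPM in replicate 2. Fibronectin (FN1) alone had 33131 and 32458 CPM with PBS, 149 CPM in rIL-17B replicate 1 and 27450 CPM in replicate 2, and the collagen COL1A2 5516, 5248, 1.09 and 4699 CPM. VIM, at 280 CPM in rIL-17B replicate 1, kept 39.1% of its PBS mean in a library where FN1 kept 0.453%. In that library THY1 (39.5%), CDH2 (43.7%), SNAI1 (78.1%) and TWIST1 (101%) kept more than VIM, and the rest of the 15 markers kept less. In replicate 2 the figures were 85.8% for VIM and 83.7% for FN1. The part of cells with these markers in the VIM difference was not tested.

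NES was compared with the 20 neural and glial markers. They summed to 291 and 419 CPM in the controls and 43.9 and 212 after rIL-17B, and 14 of the 20 were at 0 in rIL-17B replicate 1. SOX2, a factor of neural progenitors and other stem cells, measured 75.5 and 116 CPM in the controls against 10.9 and 56.6 after rIL-17B. OLIG1, of the oligodendrocyte lineage, had 46.3 and 71.1 CPM against 0 and 27.7, OLIG2 39.9 and 67.4 against 0 and 29.3, and the radial glia marker FABP7 17.8 and 27.5 against 0.0684 and 11.7. In each of these 4 genes, as in NES, PBS replicate 2 was highest, then PBS replicate 1, rIL-17B replicate 2 and rIL-17B replicate 1. SOX10, DCX and ELAVL4 were at 0 in all 4 libraries. The order of NES held in 10 of the 15 tested neural and glial markers, in 6 of the 15 mesenchymal ones and in 15.3% of all tested genes. It was picked after the NES values were seen, and it includes a difference between the PBS libraries that no treatment label marks. The part of cells with these markers in the NES difference was not tested.

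**Figure D4:**
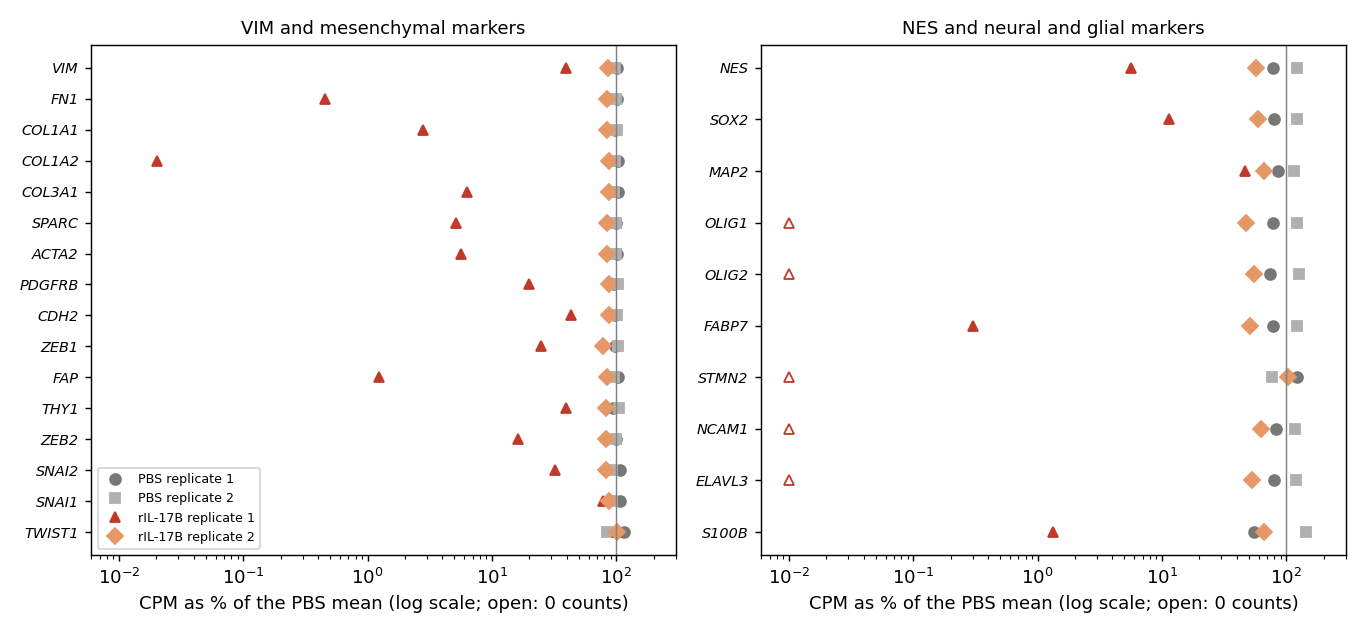
Level of VIM with the 15 mesenchymal markers (left) and of NES with the neural and glial markers that averaged at least 5 CPM with PBS (right), in each library as a percentage of the gene's PBS mean, on a log axis; open triangles at the left edge are counts of 0. On the left the 2 PBS libraries and rIL-17B replicate 2 lie close to 100% and rIL-17B replicate 1 spreads far below, with VIM at 39.1% and FN1 at 0.453%, except for SNAI1 (78.1%) and TWIST1 (101%); on the right the PBS libraries lie apart from each other in most genes.

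The genes whose pattern over the 4 libraries was most like each member were picked by the smallest root mean square difference of centred log2(CPM + 0.5). For VIM these were PIK3R1 (difference 0.012), at 44.3, 43.1, 16.6 and 37.9 CPM, and LGALS1 (0.013), at 327, 320, 128 and 283 CPM. For NES they were NPNT (0.049), at 7.61, 13.2, 0.137 and 6.04 CPM, and PIPOX (0.049). KRT8 was closest to LINC00570 (0.025) and IGSF10 (0.028), KRT18 to LINC00473 and KCNAB2 (both 0.009) and KRT80 to TMTC2 (0.009) and HASPIN (0.018). KRT19 was closest to CFAP69 (0.024) and ACTA2-AS1 (0.025), each with 1 count in rIL-17B replicate 1. With 4 libraries, of which 1 stands apart, many genes share a broad pattern, and likeness is a description only.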

How the data were processed

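RNA was measured in 4 HGC-27 libraries, 2 PBS and 2 rIL-17B, by Smart-seq2 (oligo-dT priming, PCR amplification), so polyadenylated RNA is favoured. The authors deposited raw counts per gene name for each library, without normalization and without names at 0. The submitters' processing notes name hg38, Bowtie2 2.2.3, HISAT2 2.1.0, TopHat2 and HTSeq 0.6.0, with no role; which annotation was used, and whether strand was, is not given in the sources used here.

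The 4 files were joined by name (missing = 0 counts). Names listed more than once in a library (83 to 98, always with the same count) were counted once, and 22 to 25 date-like names per library (at most 0.244% of counts) were dropped. Of 31907 names, 97.84% were found once in GENCODE 29 (GRCh38), the source of coordinates and lengths. CPM used the resulting totals. The test was edgeR's quasi-likelihood F (edgeR 4.0.16, R 4.3.3) after TMM scaling (factors 0.970 to 1.07) and filterByExpr, with Benjamini-Hochberg adjustment over 16361 genes and a threshold of 0.05; a standard error is the log2 fold change over the root of F. Wilson intervals carry 95% confidence. Alternatives were DESeq2 1.42.0, upper-quartile scaling, 2 other filters, a replicate block and each library left out.

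The members, lists and tests were chosen with earlier results of these data known. All members are named; of each related list, the 3 tested genes of highest mean CPM and the 3 with the largest log2 ratio in either treated library, markers by their lists, and 2 like genes per member that varied over 2-fold. The markers named singly, SOX2, OLIG1, OLIG2 and FABP7 among them, KRT5 and KRT14, and ROCK1 and PAK1 were chosen after values were seen. So were the chromosome 12 interval and the order of NES. Some items are not reported here.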

Additional observations from a re-analysis of the deposited data

How the results depend on the processing

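Over all genes, edgeR called 0 with all 4 libraries, and so it did with upper-quartile scaling, with no filter, with at least 10 counts in every library and with the replicate block, as did DESeq2. Leaving out 1 library gave between 0 and 9489 genes and between 0 and 7 members. The extremes were rIL-17B replicate 2 left out (9489 genes, 7 members) and PBS replicate 1 or 2 left out (0 each); without rIL-17B replicate 1 there were 504 genes and 4 members. Unadjusted p under 0.05 held for 226 genes as reported, 190 with upper-quartile scaling, 879 unfiltered, 462 with at least 10 counts, 173 with the block, 457 in DESeq2 and 2 without either PBS library. The labels do not say that replicate numbers mark shared handling, and same-numbered libraries' deviations correlated at 0.08 over genes; the block gave 0 calls, with a NES log2 fold change of -2.49 and a KRT19 value of -2.13. Signs turned for KRT19 (from -5.48 without rIL-17B replicate 2 to 0.07 without rIL-17B replicate 1) and SYNM (-0.02 with at least 10 counts, -0.04 without PBS replicate 1, -0.04 without rIL-17B replicate 1). The cause was not tested. Scaled by TMM, 1 member rather than 3 was at least 2-fold above PBS in rIL-17B replicate 1. Of the other log2 fold changes, 56 kept direction and side of the threshold and 11 passed it once a treated library was left out. Of the CPM values, 73 moved by less than the replicate SD and 7 by more, all for KRT8, KRT18 or VIM with PBS, where that SD is small. Depth limits KRT20, GFAP and, in rIL-17B replicate 1, KRT19.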
